A study of Mus musculus with 6 samples.

Results

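The 6 genes described here encode the salt-inducible kinases (Sik1, Sik2 and Sik3) and the CREB-regulated transcription coactivators (Crtc1, Crtc2 and Crtc3). They were taken from the deposited table by gene symbol, and all 6 were found among its 24940 genes. The 6 libraries came from primary hepatic stellate cells, pericytes that line liver sinusoids and store vitamin A, of female wild-type C57BL/6JBomTac mice. After 2 days of culture the cells were left for 3 h with 5 µM forskolin, a plant diterpene that activates adenylyl cyclase (3 libraries, A, B and C), or with the same volume of the solvent DMSO (3 libraries, A, B and C). Forskolin acts on adenylyl cyclase rather than on a receptor, so it does not stand for a single hormone or receptor. The age of the mice, and whether replicates came from separate animals, isolations or culture wells, is information that the sources used here do not hold. Each p-value thus reflects the spread among these libraries alone, and that spread may be technical.

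Salt-inducible kinases are serine/threonine kinases of the AMPK-related family, switched on by the upstream kinase LKB1. They phosphorylate CRTC proteins, which are then held in the cytoplasm by 14-3-3 proteins. When cAMP rises, protein kinase A phosphorylates the salt-inducible kinases and blocks this action. CRTC proteins then lose their phosphate, partly through the phosphatase calcineurin, enter the nucleus and bind CREB at cAMP-responsive genes. Sik1 is itself a CREB target, so the pathway holds a feedback loop at the level of transcription. RNA counts measure the messages only, not phosphorylation or location of the proteins.

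Promoter sequences of the other 2 kinase genes are shown first, because they are the paralogs that share Sik1's upstream kinase and substrates but differed from it in response. They are the 250 bases before the annotated start site in RefSeq (build GRCm38.p6), printed 5′ to 3′ on the gene's strand, and capitals mark TGACG, the core of the cAMP response element (CRE). The promoter table used here held 4 of the 6 genes, all but Sik1 and Crtc2.
Sik3, chr9:46012570-46012819, plus strand: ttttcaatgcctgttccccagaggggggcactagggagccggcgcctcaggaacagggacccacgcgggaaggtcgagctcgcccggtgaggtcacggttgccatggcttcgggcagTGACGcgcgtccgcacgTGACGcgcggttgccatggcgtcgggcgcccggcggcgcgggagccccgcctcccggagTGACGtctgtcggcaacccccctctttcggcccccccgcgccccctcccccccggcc
Sik2, chr9:51009074-51009323, minus strand: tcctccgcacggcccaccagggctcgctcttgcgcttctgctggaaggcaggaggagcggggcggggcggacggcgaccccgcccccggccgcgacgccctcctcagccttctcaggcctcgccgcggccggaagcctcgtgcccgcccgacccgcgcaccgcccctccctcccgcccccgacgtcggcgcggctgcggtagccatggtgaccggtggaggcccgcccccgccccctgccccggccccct
The Sik3 window held 3 copies of TGACG, all on the gene's own strand, which began 133, 116 and 57 bases before the start site. The Sik2, Crtc1 and Crtc3 windows held 0 copies on either strand. Among 32851 RefSeq promoters cut to the same 250 bases, 17.8% held at least 1 copy on either strand and 0.688% held 3 or more. The full palindromic CRE, TGACGTCA, of which TGACG is a part, was in 0 of the 4 windows and in 1.55% of all promoters. A match describes letters only, and a window without one says nothing about binding elsewhere.

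Sequencing depth ran from 2770454 to 10607918 counts per library, and the C library was the shallowest of each group. The labelled cell type was checked on 10 stellate cell markers, whose summed level was 1209 to 1379 CPM (counts scaled to a fixed library total, here the column sum) in DMSO and 1260 to 1463 CPM with forskolin. Desmin (Des), reelin (Reln) and Pdgfrb were present in every library, and Lrat, the retinol-esterifying enzyme, was low at 5.47 to 11.9 CPM. Reln made up the largest part of the sum, at 481 to 655 CPM. Among the 10 markers 1 was called: Hand2, a transcription factor gene, was at 34.4 to 61.0 CPM in DMSO and 83.7 to 109.8 CPM with forskolin, without overlap (log2 change 1.03 ± 0.19, adjusted p = 0.0152 by edgeR). Over all tested genes 2.80% were called and 20.2% did not overlap. The Hand2 call was lost without forskolin A (adjusted p = 0.101) or DMSO B (0.104), and its part in the other results was not tested. Summed markers of other liver cells reached at most 15.5 CPM for hepatocytes, 16.4 for macrophages, 9.58 for endothelium, 9.91 for cholangiocytes, and 8.58 for portal fibroblasts and smooth muscle. Krt7 and Thy1 had no count in any library. The groups overlapped in each of these 6 sums.

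With forskolin 1 of the 6 genes rose, Sik1, and none of the other 5 was called by edgeR's quasi-likelihood test over all 12233 genes tested (Benjamini-Hochberg adjusted p of 0.05). Over all tested genes, 2.80% were called, 2.22% higher and 0.572% lower. Among the 5 genes not called, 1 (Sik3) had a raw p below 0.05. None of the 5 was called by DESeq2 either (4.52% of all genes), nor by limma-voom (3.94%), nor by the likelihood ratio test of edgeR (5.30%). In a fit without both C libraries Sik3 was called too, where 9.76% of 12597 genes were called, 5.86% higher and 3.90% lower. In bulk RNA, fewer cells with a message and less of it per cell cannot be told apart.

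Sik1 (NM_010831, chromosome 17, 31844248 to 31855804, minus strand, mm10) encodes the kinase of the family that is known for induction by cAMP, first described in adrenal glands of rats on a high-salt diet. Its TMM-scaled level was 38.5, 37.9 and 28.5 CPM in DMSO A, B and C and 556, 580 and 739 CPM in forskolin A, B and C. Every forskolin library lay far above every DMSO library, as the plot of levels by library shows. The log2 fold change was 4.14 ± 0.17 (SE, n = 3 per group, adjusted p = 7.46e-07 by edgeR), which is 17.6-fold with a 95% interval of 13.5 to 22.9. The log2 change had rank 22 from the top of all tested genes, and its p-value had rank 5. Over 16 alternative settings the log2 change stayed between 3.89 and 4.22, with an adjusted p of at most 6.49e-05.

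**Figure D1:**
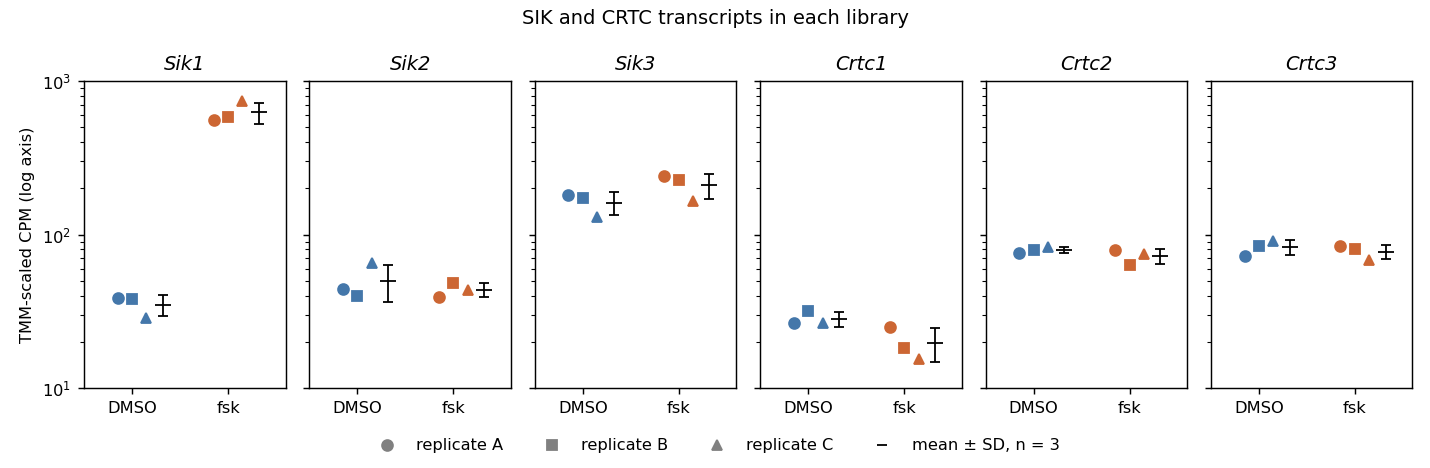
Level of each gene in each library, as TMM-scaled CPM on a log axis. Circles, squares and triangles are replicates A, B and C of DMSO (blue) and forskolin (orange, fsk), and bars are mean ± SD over 3 libraries. Sik1 moved from 28.5 to 38.5 CPM up to 556 to 739 CPM, while Crtc1 was the only other gene whose groups did not overlap.

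The highest forskolin value of Sik1 came from the shallowest library. Counts per base of its transcript were 1.18 and 1.38 in forskolin A and B and 0.422 in forskolin C, against at most 0.0830 in DMSO. Across genes, the shallow C library read higher than B where coverage was dense. For the 648 tested genes with 1 to 2 counts per base in forskolin B, the median log2 ratio of C over B was 0.32 (quartiles 0.09 and 0.52), and for the 2790 genes with 0.2 to 0.5 counts per base it was −0.07. Sik1 itself stood at 0.35, close to the median of its coverage range. In DMSO, Sik1 went the other way, at −0.41 for C over B, with 84 counts in DMSO C. The median there was −0.20 for the 1726 genes with 0.05 to 0.1 counts per base in DMSO B. The mean of forskolin A and B was 14.9-fold above that of DMSO A and B. Forskolin C was 26.0-fold above DMSO C, a split made after the values were seen. The parts of dense coverage and of the low DMSO C value in this gap were not tested.

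**Figure D2:**
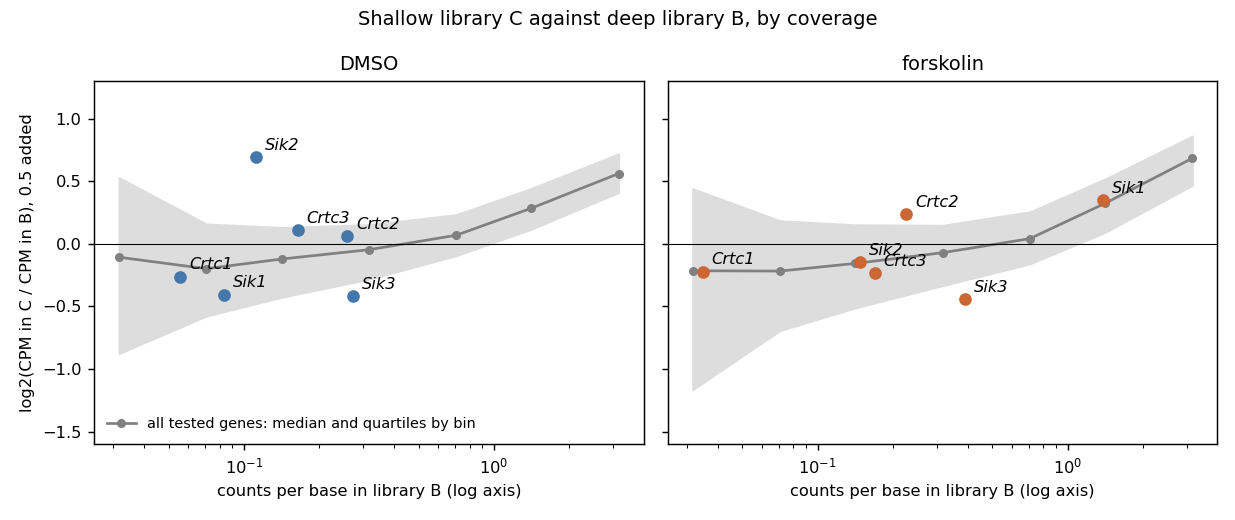
Log2 ratio of CPM in library C over library B (0.5 CPM added to each) against counts per base in library B on a log axis, for DMSO (left) and forskolin (right). The grey line and band give median and quartiles of all tested genes by coverage range, and coloured points are the 6 genes. Sik1 in forskolin lies at 1.38 counts per base and 0.35, near the grey line, while Sik3 lies below the band in both groups.

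Sik3 (NM_027498, chromosome 9, 46012820 to 46224194, plus strand) encodes the largest kinase of the family, known from chondrocyte and sleep biology. Its level was 182, 173 and 129 CPM in DMSO A, B and C and 239, 226 and 166 CPM in forskolin A, B and C. The C library was the lowest of each group, and forskolin C lay below DMSO A and B, so the groups overlapped. The log2 fold change was 0.38 ± 0.16 (95% interval 0.02 to 0.75), with an unadjusted p of 0.0425 and an adjusted p of 0.382 by edgeR. Without both C libraries it was 0.38 ± 0.08 with an adjusted p of 0.00179, so that the size stayed and the call changed. Leaving out any single library gave a log2 change from 0.25 to 0.52 and an adjusted p from 0.0839 to 0.78. The lowest and highest adjusted p over all 16 alternatives were 0.00179 and 0.78.

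Sik2 (NM_178710, chromosome 9, 50892801 to 51009073, minus strand) encodes the kinase of the family first described in fat cells. It had 44.5, 40.1 and 65.1 CPM in DMSO A, B and C and 39.1, 48.3 and 43.5 CPM with forskolin. DMSO C was the highest library and the other 5 lay close together, so the groups overlapped. The log2 fold change was −0.17 ± 0.21 (95% interval −0.63 to 0.29, adjusted p = 0.862), and it was 0.05 without DMSO C. The interval leaves room for a fall to 0.646-fold or a rise to 1.22-fold.

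Crtc1 (NM_001004062, chromosome 8, 70382358 to 70439573, minus strand) encodes the coactivator best known from neurons. It had the lowest counts of the 6 genes, with 26.5, 31.8 and 26.4 CPM in DMSO A, B and C and 25.005, 18.2 and 15.5 CPM in forskolin A, B and C. All 3 forskolin values lay below all 3 DMSO values, with forskolin A and DMSO C next to each other; such separation held for 20.2% of all tested genes. The log2 fold change was −0.51 ± 0.24 (95% interval −1.04 to 0.02) and did not pass, with an adjusted p of 0.438 by edgeR. Forskolin C rested on 40 counts, for which counting error alone is 15.8%. Over the 16 alternatives the log2 change ran from −0.73 to −0.39 and the adjusted p from 0.243 to 0.77.

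Crtc2 (NM_028881, chromosome 3, 90253858 to 90264125, plus strand) encodes the coactivator known from glucose production in the fasting liver. Its level was 75.6, 79.8 and 83.4 CPM in DMSO A, B and C and 79.7, 63.7 and 75.01 CPM with forskolin. The groups overlapped, and the log2 fold change was −0.13 ± 0.14 (95% interval −0.43 to 0.17, adjusted p = 0.839). Crtc3 (NM_173863, chromosome 7, 80586632 to 80688877, minus strand) encodes the coactivator known from fat tissue and macrophages. It had 72.5, 84.7 and 91.5 CPM in DMSO and 84.1, 80.1 and 68.0 CPM with forskolin, again with overlap. Its log2 fold change was −0.09 ± 0.14 (95% interval −0.40 to 0.23, adjusted p = 0.911). For this pair the intervals lie within 0.742-fold and 1.17-fold, so changes of the size seen in Sik1 are outside them.

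**Figure D3:**
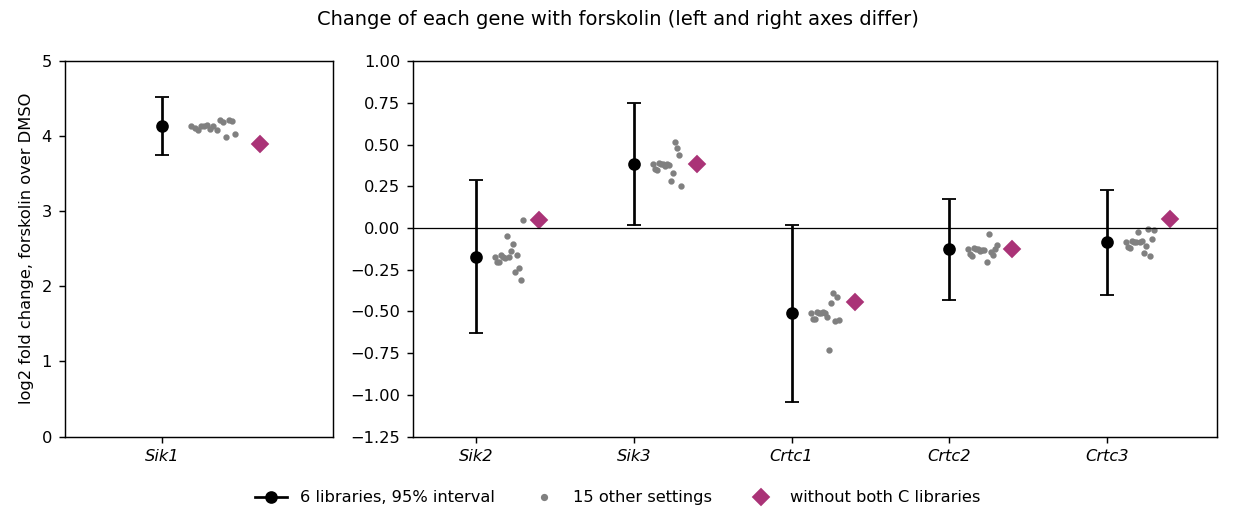
Log2 fold change of each gene, forskolin over DMSO, with separate axes for Sik1 (left) and the other 5 genes (right). Black points and bars are the estimate from 6 libraries with its 95% interval, grey dots are the other settings, and diamonds are the fit without both C libraries. The Sik1 interval runs from 3.75 to 4.52, while only Sik3 among the others has an interval wholly on one side of 0.

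Strand was not kept by the library kit, so neighbours were checked in the deposited coordinates. Crtc3 overlapped Gm15880, a predicted gene on the other strand with 60 counts in all 6 libraries together. The other 5 genes overlapped no other gene of the table. The closest neighbours were Slc39a1, a zinc transporter gene 245 bases from Crtc2, with a log2 change of 0.0065 ± 0.14, and Comp, 291 bases from Crtc1, with 29 counts in all. Neither neighbour of Sik1 passed the filter on low counts: Cryaa had 0 counts and Hsf2bp 17 counts in all.

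Levels of different genes were compared as CPM per kilobase of the deposited transcript. In DMSO the order was Crtc2 (26.2 ± 1.29, SD, n = 3), Sik3 (25.8 ± 4.51), Crtc3 (16.3 ± 1.89), Sik2 (14.1 ± 3.77), Sik1 (7.75 ± 1.25) and Crtc1 (4.99 ± 0.543). Crtc2 and Sik3 overlapped, as did Crtc3 and Sik2, whereas the remaining neighbours in this order did not. With forskolin the order was Sik1 (139 ± 22.0), Sik3 (33.6 ± 6.24), Crtc2 (24.0 ± 2.72), Crtc3 (15.2 ± 1.64), Sik2 (12.3 ± 1.31) and Crtc1 (3.46 ± 0.862), and only Crtc3 and Sik2 overlapped among neighbours. Sik1 thus went from the lowest kinase message to the highest of the 6. On the same scale it lay above 39.6% of tested genes in DMSO and above 95.8% with forskolin. These places depend on the transcript length that the table gives for each gene.

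The makeup of the kinase message was read from shares of the per-length sum. Sik1 was 17.0%, 17.7% and 13.9% of the per-length sum of the 3 kinases in DMSO A, B and C, and 71.5%, 72.1% and 80.9% in forskolin A, B and C. The share of Sik3 went from 53.9% ± 7.28 to 18.5% ± 4.78 and that of Sik2 from 29.8% ± 9.29 to 6.71% ± 0.839 (SD, n = 3). None of these 3 shares overlapped between the groups, and each had an exact permutation p of 0.1, two-sided, the smallest that 3 against 3 libraries allow (0.22 adjusted over 11 quantities). The 3 shares are parts of 1 sum, so those of Sik2 and Sik3 must fall when Sik1 rises this far. They restate the rise of Sik1 and are not separate results. Among single genes, 20.2% of all tested did not overlap. Together Sik2 and Sik3 stood at 41.7, 39.1 and 39.1 CPM per kilobase in DMSO and 49.3, 49.8 and 38.8 with forskolin, with overlap (exact permutation p = 0.4).

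**Figure D4:**
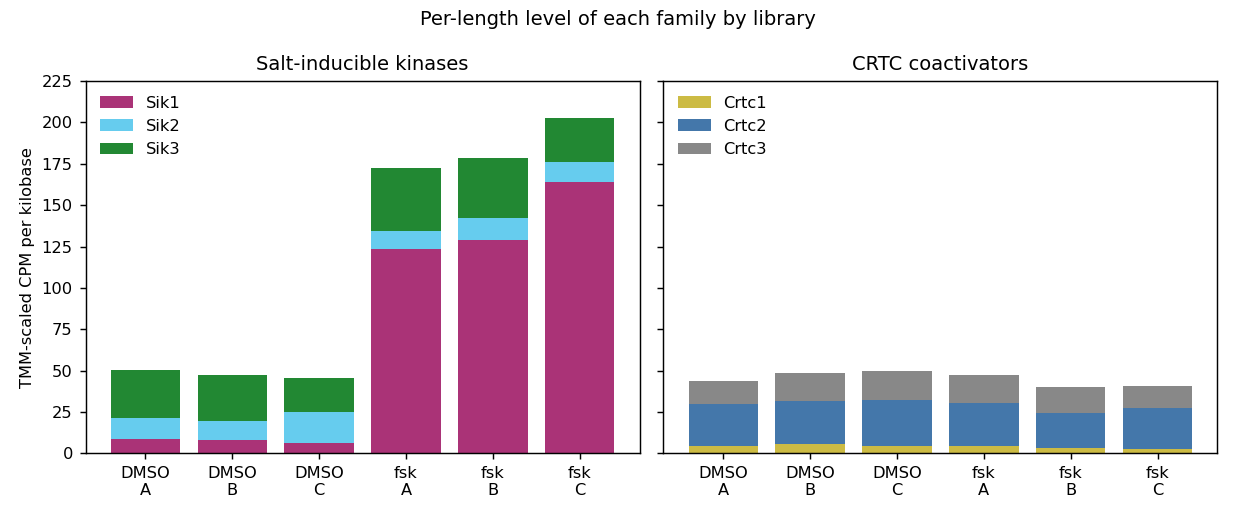
TMM-scaled CPM per kilobase of transcript, stacked by gene, for the salt-inducible kinases (left) and the CRTC coactivators (right) in each library of DMSO and forskolin (fsk). The kinase total lies at 45.4 to 50.2 in DMSO and 173 to 203 with forskolin, while the coactivator total stays between 39.9 and 50.1 in all 6 libraries.

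Kinase message was then set against the message of its substrates. The summed kinases were 50.2, 47.5 and 45.4 CPM per kilobase in DMSO A, B and C and 173, 178 and 203 with forskolin, 3.87-fold higher on average. The summed coactivators were 43.8, 48.5 and 50.1 in DMSO and 47.2, 39.9 and 40.8 with forskolin. Those groups overlapped (exact permutation p = 0.2). The ratio of kinase to coactivator message was 1.01 ± 0.123 in DMSO and 4.37 ± 0.660 with forskolin (exact permutation p = 0.1, the smallest possible, 0.22 adjusted). With Sik1 left out of the kinases the ratio was 0.845 ± 0.0927 and 1.08 ± 0.151, with overlap (exact permutation p = 0.2). Within the coactivators, Crtc2 made up 55.3% ± 1.38 and 56.2% ± 4.04, Crtc3 34.2% ± 1.69 and 35.7% ± 3.40, and Crtc1 10.5% ± 1.14 and 8.06% ± 1.32 of the sum in DMSO and forskolin. All 3 of these shares overlapped between the groups.

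Differences between genes were tested on the log2 ratio of each of the 15 pairs in each library. In all 5 pairs with Sik1 the groups did not overlap, and the ratio moved toward Sik1 by 3.78 (over Sik3) to 4.71 (over Crtc1). Each had an exact permutation p of 0.1, the smallest possible (0.214 adjusted over 15 pairs). All 5 ratios hold the same Sik1 values, so they restate the rise of Sik1 and are not separate results. Of the other 10 pairs, 2 did not overlap. Among single genes, 20.2% of all tested did not overlap, and the share over all gene pairs was not computed. The log2 ratio of Sik3 over Crtc1 was 2.63, 2.30 and 2.15 in DMSO A, B and C and 3.11, 3.49 and 3.27 with forskolin. That of Crtc1 over Crtc2 was −2.41, −2.23 and −2.56 in DMSO and −2.57, −2.70 and −3.17 with forskolin, where DMSO C and forskolin A nearly meet.

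The genes whose pattern over the 6 libraries was most like that of Sik1 were taken from 8757 genes of at least 10 CPM on average over all 6. The measure was the root mean square difference in log2 CPM centred on the DMSO mean. Genes with a forskolin rise of like size therefore come first, and the list only describes these same values. The closest were Crem (0.52), Nr4a1, an orphan nuclear receptor gene (0.53), Rsad2, an antiviral gene (0.55), Nr4a3, a paralog of Nr4a1 (0.56), and Hoxa5, a homeobox gene (0.58). The cAMP-inducible repressor ICER is among the products of Crem, and counts per gene do not tell these products apart. Centred on DMSO, Sik1 stood at 3.99, 4.05 and 4.40 in forskolin A, B and C. Crem stood at 3.45, 3.33 and 3.69 and Nr4a1 at 3.37, 3.30 and 3.63. In both, as in Sik1, forskolin C was the highest library. That library also read higher than forskolin B for densely covered genes in general, and the part of coverage in this likeness was not tested. Rsad2 had its lowest forskolin value in C (3.51), and Nr4a3 was level at 4.75, 4.73 and 4.73. Rsad2 averaged 4.26 CPM in DMSO and 58.9 CPM with forskolin, so it passed the limit of 10 CPM only through forskolin.

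Genes around the kinases and coactivators were read from 8 lists, of which 7 hold the machinery and 1 holds target genes. Over the machinery 1 of 49 tested genes rose and 0 fell, with a median log2 change of 0.04, against 2.22% higher and 0.572% lower and a median of 0.0050 over all tested genes. The gene that rose was Crem. Unadjusted p was under 0.05 for 6 of the other 48 (12.5%), against 9.55% of all genes not called. Without both C libraries 5 of 50 tested rose and 0 fell, where 5.86% of all genes were called higher and 3.90% lower.

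**Figure D5:**
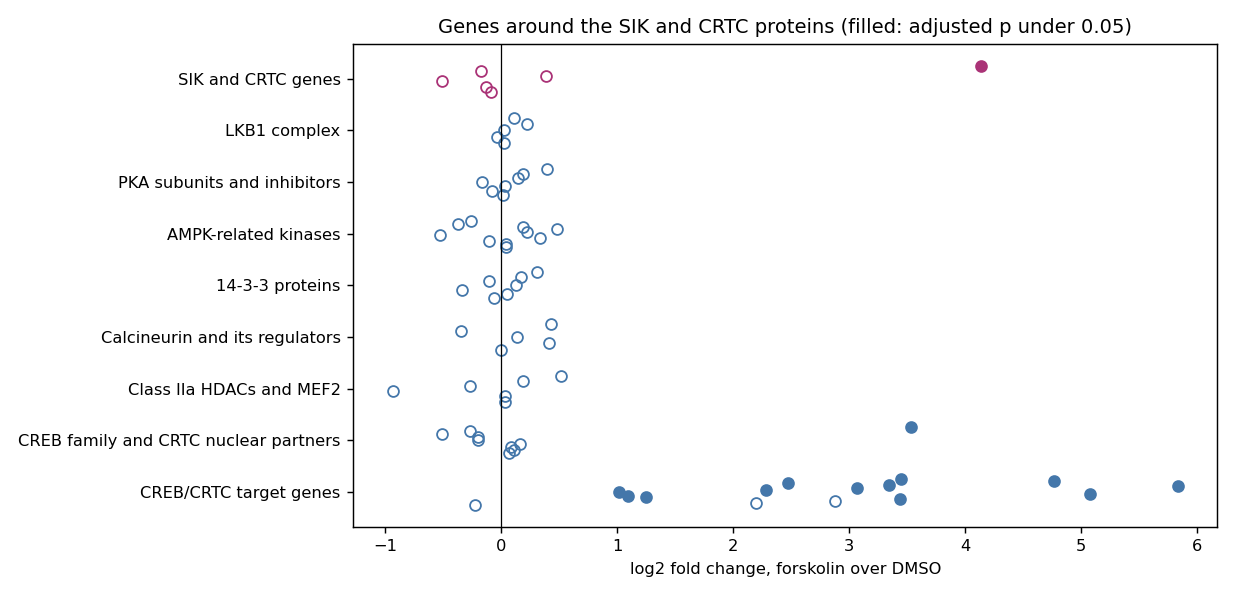
Log2 fold change, forskolin over DMSO, of the 6 genes (top row) and of each tested gene in 8 lists around them. Filled circles had an adjusted p under 0.05 and open circles did not. Filled circles are Sik1, Crem and 12 of 15 target genes, and open circles of the machinery lie between −0.94 and 0.51.

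Upstream of the kinases, 0 of 5 tested genes of the LKB1 complex were called, 0 had a raw p below 0.05, and the other 3 tools (DESeq2, limma-voom, likelihood ratio) called 0. Stk11, which encodes LKB1 itself, was at 149 ± 4.12 CPM in DMSO and 161 ± 4.25 with forskolin (log2 change 0.11 ± 0.10), and Cab39, its scaffold MO25, at 0.02 ± 0.14. Of 7 tested subunits and inhibitors of protein kinase A, 0 were called, 0 had a raw p below 0.05, and 0 were called by each of the same 3 tools. Over all tested genes 2.80% were called, so 0 of 5 and 0 of 7 are near that share. Of all genes not called, 9.55% had a raw p below 0.05. Prkar1a and Prkar2a, regulatory subunits, were at 0.19 ± 0.13 and 0.15 ± 0.10. Prkar2b, another regulatory subunit, named after its value was seen, was at 0.39 ± 0.25 (adjusted p = 0.634), and without both C libraries at 0.36 ± 0.08 (adjusted p = 0.00604; over all alternatives 0.00604 to 0.901).

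Among the other AMPK-related kinases, which share LKB1 with the salt-inducible kinases, 0 of 10 were called, 2 had a raw p below 0.05, and the same 3 tools called 0. Those 2, named for that reason, were Mark2 (log2 change −0.26 ± 0.11) and Prkaa2 (−0.37 ± 0.17). Mark3, a microtubule affinity-regulating kinase, was at 0.18 ± 0.11, and Prkaa1, the catalytic alpha1 subunit of AMPK, at 0.04 ± 0.12. Their range of log2 changes was −0.53 to 0.48, far from the 4.14 of Sik1. Of 7 genes of 14-3-3 proteins, 0 were called, 1 had a raw p below 0.05 (Ywhaq, at 0.31 ± 0.12), and the same 3 tools called 0. Over all tested genes 2.80% were called, so 0 of 10 and 0 of 7 are near that share. Of all genes not called, 9.55% had a raw p below 0.05. Ywhae and Ywhab were at −0.06 ± 0.22 and 0.05 ± 0.14.

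Calcineurin genes gave 0 calls among 5 by edgeR and by the same 3 tools, and 1 unadjusted p under 0.05. That was Ppp3ca, a catalytic subunit, at 82.1 ± 17.8 CPM in DMSO and 111 ± 19.7 with forskolin. Its log2 change was 0.43 ± 0.18, with an adjusted p of 0.373. Without both C libraries its log2 change was 0.41 ± 0.11 (adjusted p = 0.0162; 0.0162 to 0.745 over all alternatives). Ppp3r1, the regulatory subunit, was at 0.14 ± 0.11. Over all tested genes 2.80% were called by edgeR, so 0 of 5 is near that share. Of all genes not called, 9.55% had an unadjusted p under 0.05.

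Class IIa histone deacetylases are substrates of the salt-inducible kinases, and MEF2 factors are what they repress. Of 6 tested genes 0 were called by edgeR, against 2.80% of all tested genes. Of the same 6, 1 had a raw p below 0.05, against 9.55% of all genes not called. DESeq2 called 0, and 1 was called both by limma-voom and in the likelihood ratio fit. That gene was Hdac5, named after its value was seen. It had 62.3, 64.8 and 86.1 CPM in DMSO A, B and C and 104, 104 and 92.9 CPM with forskolin, without overlap. Of the 6 genes 2 did not overlap, Hdac5 and Mef2d, against 20.2% of all tested genes. The log2 change of Hdac5 was 0.51 ± 0.15 (adjusted p = 0.133 by edgeR), and 0.70 ± 0.11 without both C libraries (adjusted p = 1.26e-04). Without DMSO C it was 0.66 (adjusted p = 0.0312), and the adjusted p over all alternatives ran from 1.26e-04 to 0.449. Mef2d was at 0.19 ± 0.10 (adjusted p = 0.551; 0.0249 without both C libraries and 0.0249 to 0.842 over all alternatives) and Mef2a at 0.03 ± 0.10.

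In the nucleus, 1 of 9 tested genes of the CREB family and the partners of CRTC proteins rose and 0 fell. Over all tested genes 2.22% were called higher and 0.572% lower. Of the other 8, 1 (Crebbp) had a raw p below 0.05, against 9.55% of all genes not called. The groups did not overlap for 3 of the 9, against 20.2% of all tested genes. Crem went from 13.3, 11.9 and 14.2 CPM in DMSO A, B and C to 145, 134 and 172 CPM with forskolin. Its log2 change was 3.53 ± 0.16, with an adjusted p of 1.43e-06. The acetyltransferase genes Crebbp and Ep300, which encode the coactivators CBP and p300, were at −0.27 ± 0.12 (adjusted p = 0.406) and −0.20 ± 0.12 (adjusted p = 0.588). Creb1, named after its value was seen, was at −0.51 ± 0.24 (adjusted p = 0.429 by edgeR), with overlap. Without both C libraries Creb1 was at −0.21 ± 0.14 (adjusted p = 0.442).

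Of 15 tested target genes of CREB and CRTC proteins, 12 rose, 0 fell and 3 did not pass, against 2.22% of all tested genes higher. The list has 18 genes, and Pck1, G6pc and Sst were left out by the filter on low counts. That filter favours genes that are high in 1 group: Rgs2 had 0, 1.22 and 2.03 CPM in DMSO and 22.5 to 37.9 CPM with forskolin, and Il6, called under 10 of 16 alternatives, at most 1.22 CPM in DMSO and 7.38 to 8.46 CPM with forskolin. Ppargc1a averaged 1.04 ± 0.860 CPM in DMSO against 6.62 ± 2.86 CPM with forskolin. The count over tested genes is therefore no support for a direction of the whole list. Those 3, named after their values were seen, were Ppargc1a (2.88 ± 0.75, adjusted p = 0.0918), Areg (2.19 ± 0.69, adjusted p = 0.182) and Bdnf (−0.23 ± 0.43, adjusted p = 0.924). Without both C libraries 14 of the 15 rose, where 5.86% of all tested genes were called higher. The list was drawn up with earlier results of these data known and so is no independent evidence of direction. The lowest adjusted p values were those of Nr4a1 (3.44 ± 0.13), Nr4a3 (4.76 ± 0.18), Nfil3, a bZIP repressor gene (2.47 ± 0.12), and Pde4b, a cAMP phosphodiesterase gene (3.34 ± 0.17). Nr4a3 was at 19.7, 23.5 and 32.5 CPM in DMSO A, B and C and 672, 663 and 662 CPM with forskolin. Sik1's log2 change of 4.14 lay within the range of this list, −0.23 to 5.83.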

How the data were processed

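RNA was sequenced from 6 libraries of primary mouse hepatic stellate cells, 3 with forskolin and 3 with DMSO. Per the submitters' processing notes, STAR, HOMER and the mm10 build were used. Of their versions and settings, the handling of duplicate reads and the annotation release, nothing is stated in the material at hand. The authors made the deposited expected counts, unadjusted exon sums per gene in steps of 0.5, with those tools. They were rounded to whole numbers here before any count test. Transcript lengths came from the same deposited table.

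Tests used edgeR 4.0.16 in R 4.3.3: filterByExpr (12233 genes kept), TMM scaling, quasi-likelihood F test with robust dispersions, and Benjamini-Hochberg adjustment over all genes tested, called at 0.05. The common biological coefficient of variation was 0.213. The approximate standard error is |log2 fold change| / √F, and 95% intervals use the fit's degrees of freedom. CPM values are TMM-scaled unless a column total is named. Depth was 2770454 to 10607918 counts, so 3 counts equal 1.08 to 0.283 CPM, a limit for counting error alone, as PCR copies are not told apart. Family sums, shares and ratios were compared by exact permutation tests over libraries, two-sided. Alternatives used RLE, upper quartile or no factors, other filters, DESeq2 1.42.0, limma-voom (limma 3.58.1), edgeR's likelihood ratio test, a replicate block, leave-one-out fits, and a fit lacking both C libraries. The edgeR fit was tested on simulated data. Promoters came from RefSeq on GRCm38.p6, and the 4 windows end next to the deposited mm10 start sites.

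The genes, lists and rules were chosen with earlier results of these data known. The naming rule took all 6 genes, up to 4 called members per list by adjusted p and, where fewer than 2 were called, the 2 with the highest CPM; Hdac5, Prkar2b, Mark2, Prkaa2, Ywhaq, Ppargc1a, Areg, Bdnf, Rgs2, Il6 and Hand2 fall outside it. Of 76 listed symbols, 74 were in the table and 64 were tested. Log2 CPM for likeness used a prior count of 2. A further marker list is not reported here.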

Additional observations from a re-analysis of the deposited data

How the results depend on the processing

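Sik1 kept its direction under all 16 alternatives, as did Sik3, Crtc1 and Crtc2. The number of genes called higher (272) was 463 with no filter, 409 by DESeq2, 458 by the likelihood ratio test, 738 without both C libraries and 162 to 372 with each library left out. The number called lower (70) was 157, 144, 190, 491 and 21 to 113 in the same order, and 125 by limma-voom. Sik3 was called without both C libraries (0.38). Without both C libraries Sik2 was at 0.046 and Crtc3 at 0.052, both turned in sign, and Sik2 ran from −0.31 to 0.046 with each library left out. The Sik1 share rose by 54.4 percentage points without both C libraries (58.6 with all) and the summed kinases by 1.85 on the log2 scale (1.95 with all); the Sik2 share changed by −15.7 points with no division by length (−23.1 with it). Among the list genes named by the rule, signs near 0 turned for 5. Cab39 was at −0.0057 with upper quartile factors, −0.022 with library totals and −0.078 without both C libraries, and Mef2a at −0.0071 with library totals and −0.0038 without both C libraries. Ywhab was at −0.028 without both C libraries. With each library left out, Cab39 ran from −0.12 to 0.10, Mef2a from −0.0029 to 0.062, Prkaa1 from −0.023 to 0.12, Ywhab from −0.079 to 0.11 and Ywhae from −0.30 to 0.13. Only the fits that left libraries out used fewer than 6 libraries, and the cause of these moves was not tested.

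The letters A, B and C were checked as pairs. Deviations from the group means of same-letter libraries correlated at 0.0476, 0.133 and 0.15 across genes. Forskolin B and C each correlated best with the DMSO library of their own letter, while forskolin A correlated best with DMSO B (0.103). Every correlation of a C library with an A or B library was negative (−0.0797 to −0.147), and C was the shallowest library of each group. Depth and pairing by letter cannot be told apart in this check. It therefore does not settle whether the libraries were paired. The main fit took no pairing by letter. With the replicate letter as a block, 455 genes were called higher and 194 lower, and Sik3 was called at 0.38 ± 0.07 (adjusted p = 0.0151). No other of the 6 genes changed its call, and of the named list genes Prkar2b was called (0.40 ± 0.09, adjusted p = 0.0298). Depth limits Crtc1 most, at 40 counts in forskolin C, and the exact tests of sums and shares cannot go below 0.1.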
